A study of Mus musculus with 9 samples.

Results

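The genes described here are 10 genes of autophagy and muscle atrophy: Fbxo32, Trim63, Map1lc3a, Map1lc3b, Sqstm1, Bnip3, Gabarapl1, Ulk1, Becn1 and Foxo3. They were chosen by name, through the probe sets to which the platform annotation gives that single symbol. Each had 1 such probe set, so 10 of 33793 probe sets are described, and all 10 were among the 13650 bright enough to be tested. Their signals were measured in whole hearts of 9 mice of 2 months, 1 array per heart. The 3 wild type hearts carry neither deletion, the 3 Col4a3-/- hearts lack a chain of type IV collagen of basement membranes (a model of Alport syndrome), and the 3 Col4a3-/-OPN-/- hearts lack osteopontin as well. Both deletions are present in the whole animal, and strain and sex are not given in the sources used here. The series' title raises heart failure with preserved ejection fraction, osteopontin and mitochondria.

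Autophagy carries cell contents to the lysosome inside a double membrane. The kinase Ulk1 starts the process, Becn1 is part of the lipid kinase complex that prepares the membrane, and the small proteins encoded by Map1lc3a, Map1lc3b and Gabarapl1 are attached to it. Sqstm1 and Bnip3 link cargo, respectively ubiquitinated proteins and mitochondria, to those small proteins. Muscle also degrades its proteins through the proteasome, to which the muscle ubiquitin ligases encoded by Fbxo32 (atrogin-1) and Trim63 (MuRF1) direct them. FoxO transcription factors, among them Foxo3, are known to activate many of these genes in wasting or fasted muscle.

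Promoter sequences were available for 7 of the 10 genes (RefSeq, build GRCm38.p6). They are shown because these genes share a known class of regulator, and the 250 bases before each gene start were searched on both strands for the forkhead motifs GTAAACA and ATAAACA, for the hypoxia core ACGTG and for CACGTG, which contains it. The promoters of Trim63 and Gabarapl1 each held 1 forkhead match, and that of Bnip3 held ACGTG on both strands, where the matches overlap as the palindrome CACGTG. No match lay in the windows of Ulk1, Map1lc3b, Foxo3 and Sqstm1. Either forkhead motif occurred in 7.10% of the 32851 promoters of this length, ACGTG in 16.6%, and CACGTG in 6.02%. Capitals mark the matches in the following sequences, each written 5′ to 3′ on the strand of its gene, and a match is no evidence of binding.
Trim63 (chr4:134314870-134315119, plus strand): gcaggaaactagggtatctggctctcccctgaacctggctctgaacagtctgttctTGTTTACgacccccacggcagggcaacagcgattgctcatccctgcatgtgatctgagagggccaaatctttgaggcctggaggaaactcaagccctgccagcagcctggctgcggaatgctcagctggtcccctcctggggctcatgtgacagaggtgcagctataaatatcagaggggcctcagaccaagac
Gabarapl1 (chr6:129532942-129533191, plus strand): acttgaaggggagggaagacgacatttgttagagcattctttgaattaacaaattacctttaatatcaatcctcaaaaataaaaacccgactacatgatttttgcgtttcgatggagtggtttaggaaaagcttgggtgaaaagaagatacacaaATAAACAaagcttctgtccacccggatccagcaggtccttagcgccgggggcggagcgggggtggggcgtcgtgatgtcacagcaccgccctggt
Bnip3 (chr7:138909507-138909756, minus strand): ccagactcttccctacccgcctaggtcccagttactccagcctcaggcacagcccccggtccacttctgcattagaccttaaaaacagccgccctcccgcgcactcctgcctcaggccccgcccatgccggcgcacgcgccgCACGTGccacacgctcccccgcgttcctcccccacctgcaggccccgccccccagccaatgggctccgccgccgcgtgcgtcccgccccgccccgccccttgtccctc
Counted from the gene start, the first base of the match lies at -194 in Trim63, -95 in Gabarapl1 and -108 in Bnip3.

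None of the 10 genes passed the test of a difference between genotypes (limma across all tested probe sets, Benjamini-Hochberg adjusted p below 0.05), and most varied widely among hearts of 1 genotype. Col4a3-/- replicate 3 had the highest signal of all 9 hearts at 7 of the 10 genes, and Col4a3-/- replicate 1, of the same genotype, the lowest at 6. These hearts were the highest and the lowest at 21.3% and 18.5% of all tested probe sets. Col4a3-/- replicate 3 stood apart over all tested probe sets (mean Pearson's r with the other arrays of 0.943), and its markers of endothelial activation and acute phase had a summed signal of 13 on the log2 scale, against 10.03 to 12.04 in the other 8 hearts. Its liver markers were at 10.9 against 7.47 to 7.92, with Alb at 10.5, and its 8 markers of ventricular muscle summed to 15.0 against 15.2 in each other heart. Of these, Actc1 (12.2 against 12.87 to 12.94), Myl2, Myl3 and Tnni3 were lower than in each other heart. Tnnt2 was higher (13.04 against 12.86 to 12.95), and Myh6, Mb and Ryr2 were inside the range of the other hearts. Markers of atrial muscle were low in Col4a3-/- replicates 1 and 3 (12.9 and 13.1, against 13.7 to 14.0 elsewhere). Col4a3-/- replicate 2 had the highest markers of lung and airway (12.3, against 7.17 to 10.02 in the other hearts). It was also the highest for brown fat (11.8, against 8.77 to 10.2). Markers of smooth muscle were lower in the Col4a3-/- hearts (10.2 to 11.1) than in each wild type heart (11.5 to 11.9). The sums of the Col4a3-/-OPN-/- hearts lay in between (11.2 to 11.4), also below each wild type heart. Among the single markers this held for Acta2 and Tagln. Myh11 was higher in each Col4a3-/-OPN-/- heart (8.14 to 8.17) than in each wild type heart (7.83 to 8.01). Cnn1 in replicate 3 (7.46) was above each wild type heart, and Smtn in replicate 2 (8.91) was inside their range. The part of the lung, brown fat and smooth muscle markers in the differences given below was not tested, and the differences without Col4a3-/- replicate 3 rest on replicates 1 and 2. Col4a3-/- replicates 1 and 3 also had the Xist signal of female hearts, as did Col4a3-/-OPN-/- replicate 2. Each wild type heart lacked it (4.55 to 4.74) and had the Y-linked Eif2s3y signal (8.24 to 8.39). In comparisons with wild type hearts, sex and genotype therefore cannot be fully told apart. Of 8 markers of skeletal muscle, Myh1, Myh2, Myh4 and Mylpf lay between 4.38 and 5.04, below the 5.21 needed for testing. The other 4 passed that filter. Tnnt3 and Tnni2 lay between 5.55 and 5.95, Acta1 between 8.38 and 11.17, and Ckm between 11.03 and 11.59. In whole tissue, fewer cells of a type and less RNA per cell cannot be told apart.

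The ubiquitin ligase genes spread most. Fbxo32 (probe set 17317266) was at 9.43, 9.75 and 9.64 in wild type hearts, 9.06, 9.13 and 10.90 in Col4a3-/- hearts, and 9.44, 9.15 and 10.09 in Col4a3-/-OPN-/- hearts, in the order of the replicate numbers, all on the log2 scale. The Col4a3-/- hearts thus held both the highest and the lowest value of the series, and the groups overlapped. Their mean was 9.70 ± 1.04 (SD, n = 3), against 9.61 ± 0.16 in wild type and 9.56 ± 0.49 in Col4a3-/-OPN-/- hearts. The log2 difference between Col4a3-/- and wild type hearts was 0.09, with a 95% interval from -0.83 to 1.01 (limma adjusted p = 0.967), which leaves room for a fold between 0.561 and 2.01. Trim63 (17419731), encoding a ligase of the sarcomere, was at 9.38, 9.37 and 9.65 in wild type hearts, 8.94, 9.52 and 10.96 in Col4a3-/- hearts, and 9.44, 8.98 and 9.84 in Col4a3-/-OPN-/- hearts. Here 1 Col4a3-/- heart lay above and 1 below every wild type and Col4a3-/-OPN-/- heart. Its log2 difference between Col4a3-/- and wild type hearts was 0.33 (95% interval -0.57 to 1.24, limma adjusted p = 0.852), and between Col4a3-/-OPN-/- and Col4a3-/- hearts -0.38 (-1.29 to 0.52, adjusted p = 0.710). In Col4a3-/- replicate 3 the signal was 1.80 log2 units above the mean of the other Col4a3-/- hearts for Fbxo32 and 1.74 for Trim63. The SD within genotypes was 0.67 and 0.66, larger than that of 99.1% and 99.0% of the tested probe sets (median 0.18). Without Col4a3-/- replicate 3 the sign turned, to -0.51 for Fbxo32 (SE 0.23, adjusted p = 0.694) and -0.25 for Trim63 (SE 0.24, adjusted p = 0.860) against wild type.

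**Figure D1:**
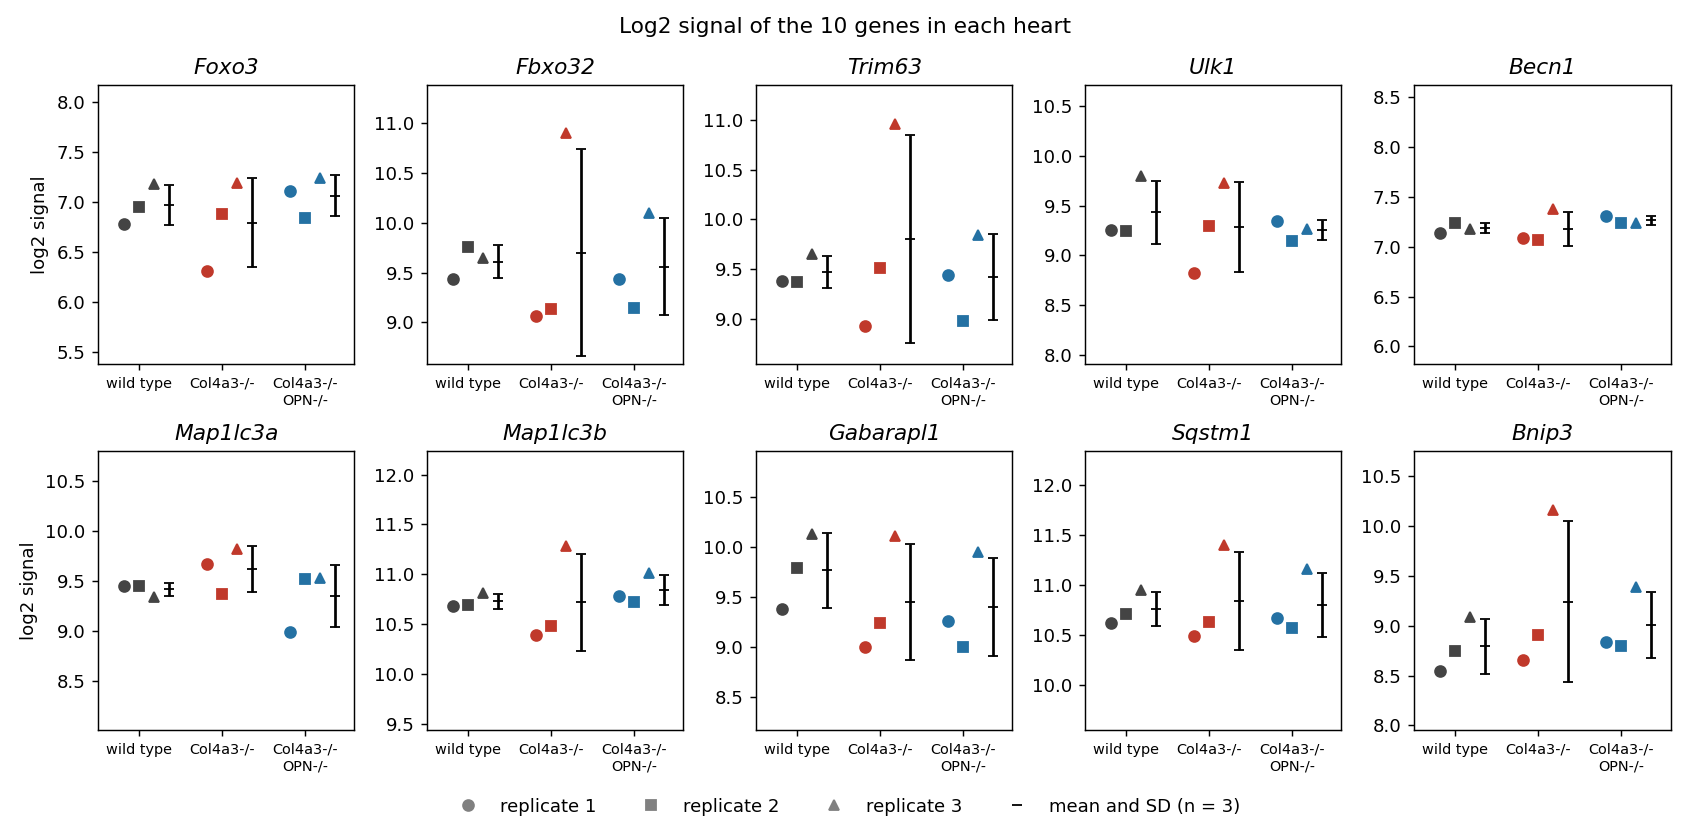
Log2 signal (vertical axis, of equal height in each panel) of the 10 genes in wild type, Col4a3-/- and Col4a3-/-OPN-/- hearts. Each symbol is 1 heart, with its shape giving the replicate number, and the bar gives the mean and SD (n = 3); Col4a3-/- replicate 3 stands above all other hearts for Fbxo32 (10.9), Trim63 (10.96) and Bnip3 (10.2), and groups overlap in every panel.

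Foxo3 (17240529), the transcription factor, was at 6.78, 6.95 and 7.18 in wild type hearts, 6.31, 6.88 and 7.18 in Col4a3-/- hearts, and 7.11, 6.84 and 7.24 in Col4a3-/-OPN-/- hearts. The lowest value was that of Col4a3-/- replicate 1, and the third replicate was the highest in each genotype. Its log2 difference was -0.18 between Col4a3-/- and wild type hearts (SE 0.22, limma adjusted p = 0.846) and 0.27 between Col4a3-/-OPN-/- and Col4a3-/- hearts (SE 0.22, adjusted p = 0.610). In the heart where Fbxo32 and Trim63 were highest, Foxo3 was 0.21 above the wild type mean, a deviation that 24.3% of the tested probe sets exceeded in that heart.

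Among the genes that start autophagy, Ulk1 (17451140) was at 9.25, 9.24 and 9.80 in wild type hearts, 8.82, 9.30 and 9.72 in Col4a3-/- hearts, and 9.35, 9.14 and 9.27 in Col4a3-/-OPN-/- hearts. Wild type replicate 3 was the highest and Col4a3-/- replicate 1 the lowest, while Col4a3-/-OPN-/- hearts lay close together (9.25 ± 0.10). Its log2 differences were -0.15 for Col4a3-/- against wild type, -0.03 for Col4a3-/-OPN-/- against Col4a3-/-, and -0.18 for Col4a3-/-OPN-/- against wild type (SE 0.22 for each, limma adjusted p = 0.876, 0.967 and 0.999). Becn1 (17269845) was the steadiest of the 10 genes, at 7.14, 7.24 and 7.18 in wild type hearts, 7.09, 7.07 and 7.38 in Col4a3-/- hearts, and 7.31, 7.24 and 7.23 in Col4a3-/-OPN-/- hearts. Its values spanned 0.31 log2 units over the 9 hearts, and its SD within genotypes (0.11) was larger than that of only 13.5% of the tested probe sets. All 3 differences lay between -0.01 and 0.09, and the 95% interval for Col4a3-/- against wild type, -0.29 to 0.28, corresponds to folds from 0.816 to 1.21. Another probe set shares its symbol with Cntd1 and was left out by the rule.

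The genes of the small membrane-bound proteins did not move alike. Map1lc3b (17506306) was at 10.68, 10.69 and 10.81 in wild type hearts, 10.39, 10.48 and 11.28 in Col4a3-/- hearts, and 10.79, 10.73 and 11.02 in Col4a3-/-OPN-/- hearts. Col4a3-/- replicates 1 and 2 were the lowest of the 9 hearts and replicate 3 the highest. The group means were almost equal (log2 difference -0.01 between Col4a3-/- and wild type, 95% interval -0.45 to 0.43, limma adjusted p = 0.994). Without Col4a3-/- replicate 3 the difference became -0.29 (SE 0.11, adjusted p = 0.633) against wild type hearts and 0.40 (SE 0.11, adjusted p = 0.259) for Col4a3-/-OPN-/- against Col4a3-/- hearts. Map1lc3a (17378337) was at 9.45, 9.45 and 9.34 in wild type hearts, 9.67, 9.37 and 9.82 in Col4a3-/- hearts, and 8.99, 9.52 and 9.53 in Col4a3-/-OPN-/- hearts. Here Col4a3-/- replicate 1 was second highest, and the lowest value belonged to Col4a3-/-OPN-/- replicate 1. Map1lc3a had the largest difference of Col4a3-/-OPN-/- from Col4a3-/- hearts relative to its error, -0.27 (SE 0.17, limma adjusted p = 0.508), and 0.21 for Col4a3-/- against wild type (SE 0.17, adjusted p = 0.766). Gabarapl1 (17463550) was at 9.38, 9.79 and 10.13 in wild type hearts, 9.004, 9.24 and 10.11 in Col4a3-/- hearts, and 9.26, 9.0 and 9.95 in Col4a3-/-OPN-/- hearts. The third replicate was the highest in each genotype, and the highest wild type and Col4a3-/- hearts lay side by side. Its wild type mean (9.77 ± 0.37) lay above those of Col4a3-/- (9.45 ± 0.58) and Col4a3-/-OPN-/- hearts (9.40 ± 0.49), by less than the spread (adjusted p = 0.807 and 0.999). Without Col4a3-/- replicate 3 the difference between Col4a3-/- and wild type hearts was -0.65 (SE 0.27, adjusted p = 0.681).

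The cargo receptor genes were highest in Col4a3-/- replicate 3. Sqstm1 (17262300) was at 10.62, 10.71 and 10.95 in wild type hearts, 10.49, 10.63 and 11.41 in Col4a3-/- hearts, and 10.67, 10.57 and 11.17 in Col4a3-/-OPN-/- hearts. The third replicate led in each genotype, and the group means lay within 0.08 of each other (10.76 ± 0.17, 10.84 ± 0.49 and 10.80 ± 0.32 in the same order of genotypes). Bnip3 (17497421), whose protein sits on the mitochondrial outer membrane and is induced by low oxygen, was at 8.55, 8.75 and 9.09 in wild type hearts, 8.65, 8.91 and 10.16 in Col4a3-/- hearts, and 8.84, 8.80 and 9.39 in Col4a3-/-OPN-/- hearts. Col4a3-/- replicate 3 stood apart from the next heart, Col4a3-/-OPN-/- replicate 3. Bnip3 had the largest log2 difference of the 10 genes between Col4a3-/- and wild type hearts, 0.45 (95% interval -0.29 to 1.19, limma adjusted p = 0.747), and without that heart the difference was -0.01 (SE 0.21, adjusted p = 0.993). Its difference between Col4a3-/-OPN-/- and wild type hearts was 0.21 (SE 0.34, adjusted p = 0.999).

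Counted over the 10 genes, none passed in any comparison. Between Col4a3-/- and wild type hearts limma called 0 of 10, with 0 at an unadjusted p under 0.05 (0% and 8.35% of all tested probe sets), and the groups did not overlap at 0 of 10 (12.5% of all). Between Col4a3-/-OPN-/- and Col4a3-/- hearts the counts were also 0, 0 and 0 (0.044%, 13.6% and 16.5% of all tested probe sets). The same held for Col4a3-/-OPN-/- against wild type hearts (0%, 3.68% and 13.2% of all). The moderated F-test over the 3 genotypes called 0 of 10, with 0 at an unadjusted p under 0.05 (0.0147% and 9.3% of all). The median difference of the 10 genes was 0.04 for Col4a3-/- against wild type (5 positive, 5 negative) and -0.04 for Col4a3-/-OPN-/- against Col4a3-/- hearts (3 positive, 7 negative), beside -0.02 and 0.04 over all tested probe sets; both comparisons contain the Col4a3-/- hearts. For Col4a3-/-OPN-/- against wild type it was -0.0047 (5 positive, 5 negative), beside 0.01 over all. The precision differed among the genes, with an SE of a difference of 0.42 for Fbxo32, 0.41 for Trim63 and 0.13 for Becn1.

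Leaving out Col4a3-/- replicate 3 turned the sign at Fbxo32, Trim63, Sqstm1 and Bnip3 in the comparison of Col4a3-/- and wild type hearts, and at these genes, Gabarapl1 and Ulk1 between Col4a3-/-OPN-/- and Col4a3-/- hearts. That heart was the highest Col4a3-/- heart at each of the 10 genes (35.5% of all tested probe sets). Leaving it out therefore lowers the Col4a3-/- mean of each gene. Without it, 9 of the 10 genes had a negative difference between Col4a3-/- and wild type hearts (median -0.27, against -0.03 over all tested probe sets). Map1lc3a was the exception at 0.11. For Col4a3-/-OPN-/- against Col4a3-/- hearts 9 of 10 were then positive (median 0.23, against 0.04 over all), and again Map1lc3a differed in sign (-0.17). Limma called 0 of the 10 in both, with 3 (Fbxo32, Map1lc3b and Gabarapl1) and 2 (Map1lc3b and Foxo3) at an unadjusted p under 0.05. Over all tested probe sets that share was 7.19% and 12.4%. Col4a3-/- replicate 3 is singled out because its array stood apart. Leaving out Col4a3-/- replicate 1 instead, the lowest heart at 6 genes, moved the differences against wild type hearts the other way. They were then 0.41 for Fbxo32, 0.77 for Trim63, 0.18 for Map1lc3a, 0.15 for Map1lc3b and 0.26 for Sqstm1. Ulk1, Becn1 and Foxo3 turned positive, Bnip3 stayed positive and Gabarapl1 stayed negative. Limma called 0 of the 10 there too.

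**Figure D2:**
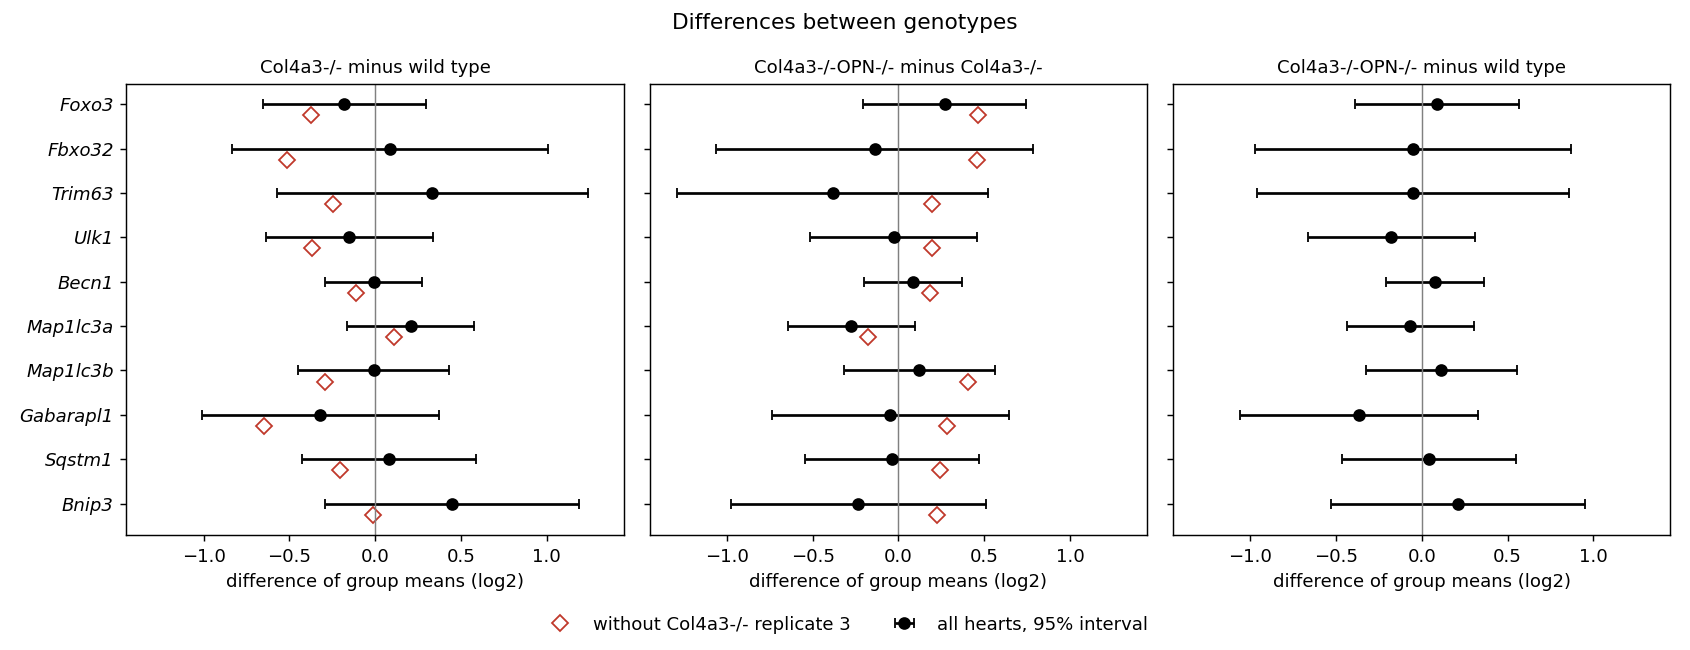
Difference of group means (log2, horizontal axis) of each gene in the 3 comparisons. Filled points with bars give the fit over all hearts with its 95% interval, and every interval crosses 0. Open diamonds give the difference without Col4a3-/- replicate 3. It was negative for 9 of 10 genes in the left panel and positive for 9 of 10 in the middle one. That heart was the highest Col4a3-/- heart at 10 of 10 genes, and both panels share the Col4a3-/- hearts.

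Many of the genes had a like order of hearts. The third replicate was the highest heart in all 3 genotypes for 6 of the 10 genes (Bnip3, Foxo3, Gabarapl1, Map1lc3b, Sqstm1 and Trim63), a pattern held by 5.02% of the tested probe sets. It was the highest within Col4a3-/- hearts for 10 of 10 genes, within Col4a3-/-OPN-/- hearts for 8 and within wild type hearts for 7 (35.5%, 30.0% and 31.8% of all tested probe sets). This pattern was noticed in the data and has no test. The labels give the replicate numbers no meaning across genotypes. Relative to the wild type mean, the median over the 10 genes was 0.19, 0.48 and 0.28 in the third replicates of wild type, Col4a3-/- and Col4a3-/-OPN-/- hearts, and between -0.44 and -0.03 in the other 6 hearts. The same median over all tested probe sets lay between -0.03 and 0.03 in each heart. Of these 3 hearts, 2 lacked the Xist signal (4.56 and 4.57, against 8.50 in Col4a3-/- replicate 3). Endothelial activation and acute phase markers had a summed signal of 10.5 and 11 in the third replicates of wild type and Col4a3-/-OPN-/- hearts, inside the range of the remaining hearts. The part of these markers in the result was not tested.

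**Figure D3:**
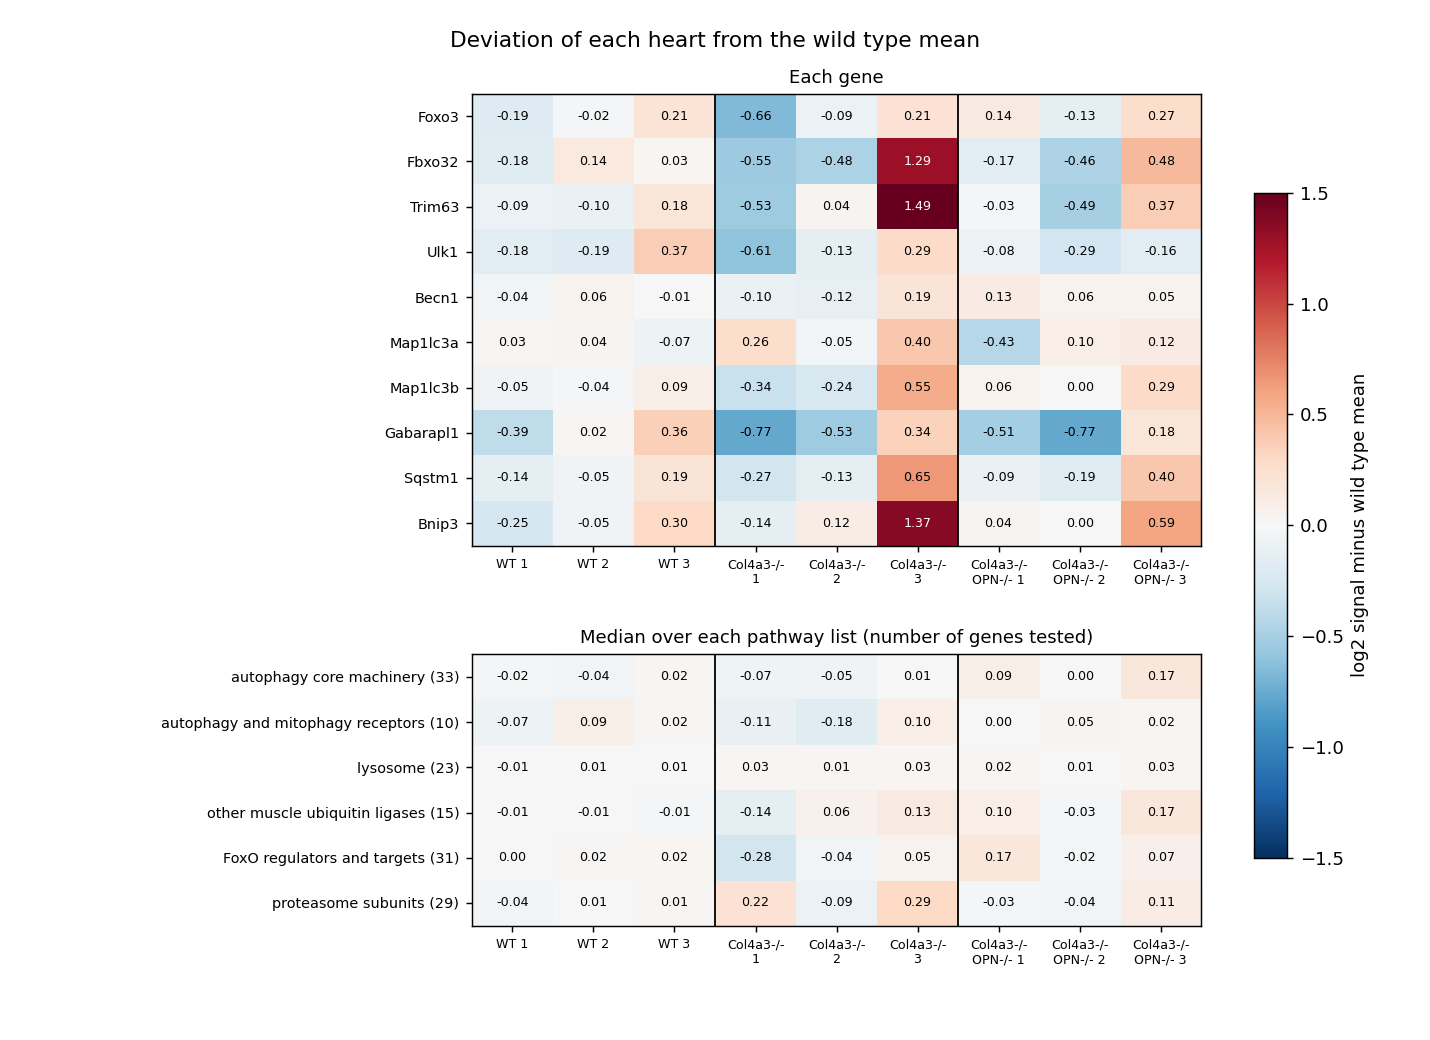
Log2 signal of each heart (columns) minus the wild type mean, for each of the 10 genes (upper panel) and as the median over 6 lists of related genes (lower panel). Red is above and blue below the wild type mean; the column of Col4a3-/- replicate 3 is positive for all 10 genes, up to 1.49 for Trim63, and no list median exceeds 0.29 in any heart.

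The profile of Trim63 over the 9 hearts, the one with the largest SD, was set beside those of all other tested probe sets. Likeness was measured as the root mean square difference of profiles after subtracting each probe set's mean. The 5 closest genes were Tbc1d15, encoding a regulator of Rab GTPases (0.15 log2 units), Rab11b, a Rab GTPase of recycling endosomes (0.17), Fetub, a secreted protein (0.18), Ctsl, the lysosomal protease cathepsin L (0.19), and Gm13363 (0.20). Each had its highest value in Col4a3-/- replicate 3, with Ctsl at 11.3 there and between 9.64 and 10.2 in the other hearts. The Trim63 profile peaks in that heart, so this shared peak follows from how the 5 were chosen. Fbxo32 and Bnip3 followed at ranks 7 and 8 (0.20 each). Sqstm1 was at rank 98, Map1lc3b at 311 and Gabarapl1 at 316, while Becn1 (2746) and Map1lc3a (3261) were the least alike of the 10 genes by this measure. It is not scaled for the spread of a gene, and a flat profile ranks far away whatever its shape. Over the 9 hearts Becn1 spanned 0.31 log2 units, Map1lc3a 0.83 and Trim63 2.03.

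**Figure D4:**
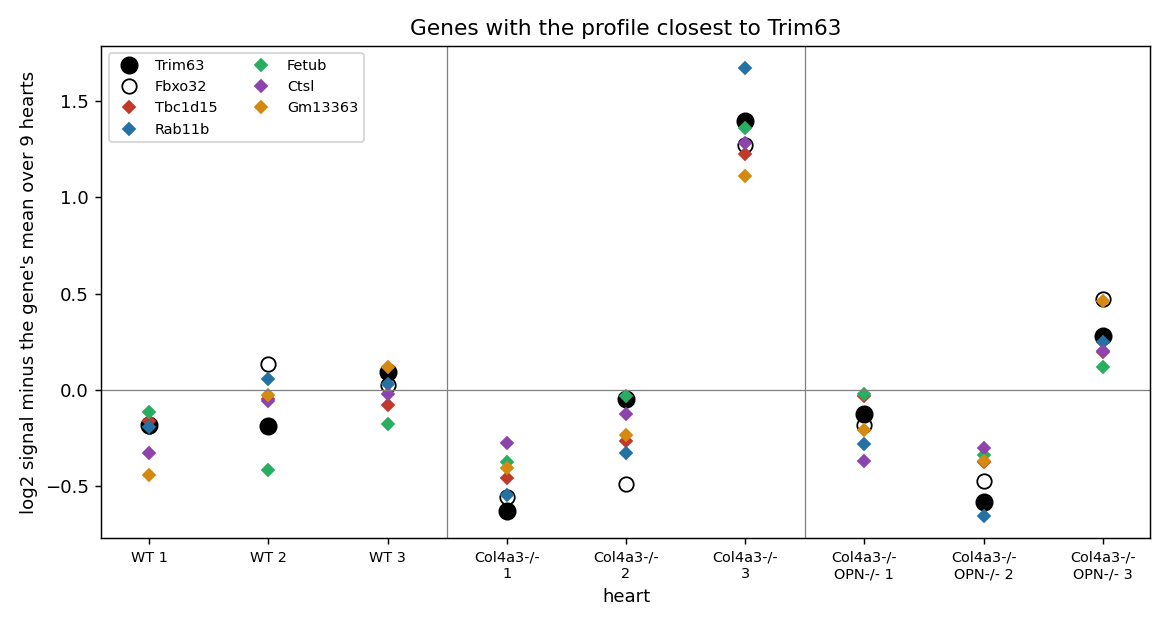
Log2 signal minus each gene's own mean over 9 hearts (vertical axis) in each heart for Trim63 (filled circles), Fbxo32 (open circles) and the 5 genes closest to Trim63 (diamonds). The genes stand together above 1 in Col4a3-/- replicate 3 and below 0 in Col4a3-/- replicate 1 and Col4a3-/-OPN-/- replicate 2. The 5 genes were chosen for this likeness to Trim63.

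The other genes of these pathways were counted over 6 lists with 141 tested genes. Limma called 0 of 141 in each of the 3 comparisons. At an unadjusted p under 0.05 there were 9 for Col4a3-/- against wild type, 14 for Col4a3-/-OPN-/- against Col4a3-/- and 1 for Col4a3-/-OPN-/- against wild type hearts. Over all tested probe sets that share was 8.35%, 13.6% and 3.68%, and the list genes lay below it in each comparison. The lists were written with earlier results of these data known.

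Of 33 tested genes of the core autophagy machinery, 0 passed. For Col4a3-/- against wild type hearts 13 were positive (median -0.07, against -0.02 over all tested probe sets), with Gabarapl2, a further membrane-bound protein of this family, at 0.25 and Rubcn, an inhibitor of autophagosome maturation, at -0.30 (limma adjusted p = 0.673 and 0.692). With single hearts left out that median ran from -0.10 to 0.02, and without Col4a3-/- replicate 1 17 of 33 were positive. For Col4a3-/-OPN-/- against Col4a3-/- hearts 25 were positive (median 0.18, against 0.04 over all tested probe sets). Rubcn was the highest at 0.50 (SE 0.19, adjusted p = 0.313) and Snap29, of the fusion machinery, the lowest at -0.24 (adjusted p = 0.522). The median of this comparison lay between 0.12 and 0.20 with any 1 heart left out, 0.11 once arrays were quantile normalized anew and 0.22 once they were centred.

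Among 10 tested receptors of autophagy and mitophagy, 0 passed. For Col4a3-/- against wild type hearts 2 were positive (median -0.06, against -0.02 over all tested probe sets). For Col4a3-/-OPN-/- against Col4a3-/- hearts, which shares the Col4a3-/- hearts, 10 were (median 0.08, against 0.04 over all). Without Col4a3-/- replicate 2, 6 of 10 were positive in each of these. Between Col4a3-/-OPN-/- and wild type hearts 4 were positive. Fundc1, a mitophagy receptor of the outer mitochondrial membrane, was at -0.35 for Col4a3-/- against wild type and at 0.35 for Col4a3-/-OPN-/- against Col4a3-/- hearts (SE 0.14 in both, limma adjusted p = 0.542 and 0.321). Tax1bp1, a receptor for ubiquitinated cargo, was at 0.13 and 0.0082. Of 23 lysosomal genes 0 passed. Ctsl was the highest for Col4a3-/- against wild type hearts (0.43, SE 0.34, adjusted p = 0.760) and Mcoln1, a lysosomal calcium channel, the lowest (-0.28, adjusted p = 0.626). Their places were exchanged for Col4a3-/-OPN-/- against Col4a3-/- hearts, which shares the Col4a3-/- hearts (-0.45 and 0.33, limma adjusted p = 0.594 and 0.351). Without Col4a3-/- replicate 3 Ctsl was at -0.07 and 0.05 in these comparisons.

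Other ubiquitin ligases of muscle gave 0 calls among 15 genes. Cblb, a ligase of insulin and growth factor signalling, was at 0.51 (SE 0.37) and Fbxo30 at -0.36 (SE 0.16) for Col4a3-/- against wild type hearts (limma adjusted p = 0.731 and 0.596). Without Col4a3-/- replicate 3 Cblb was at 0.05. Nedd4l was at 0.30 and Fbxo31 at -0.13 for Col4a3-/-OPN-/- against Col4a3-/- hearts (adjusted p = 0.369 and 0.871). Of 31 regulators and targets of FoxO factors 0 passed. Ddit4, a stress-induced inhibitor of mTOR, was at 0.37 and Pik3ip1, an inhibitor of phosphatidylinositol 3-kinase, at -0.47 for Col4a3-/- against wild type hearts (SE 0.30 and 0.17, adjusted p = 0.765 and 0.506). Without Col4a3-/- replicate 3 Ddit4 was at 0.06. Pik3ip1 was at 0.47 and the cell cycle inhibitor Cdkn1a at -0.41 for Col4a3-/-OPN-/- against Col4a3-/- hearts (SE 0.17 and 0.55, adjusted p = 0.298 and 0.775). Col4a3-/- replicate 3 was the highest heart for 14 of the 31 (45.2%, against 21.3% of all tested probe sets).

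Proteasome subunits had small differences, most of them positive for Col4a3-/- against wild type hearts. For Col4a3-/- against wild type hearts 28 of 29 were positive with a median of 0.11, against -0.02 over all tested probe sets, and 0 passed. Psmb4, of the catalytic core, was the highest (0.44, SE 0.13, limma adjusted p = 0.451) and Psmb2 the lowest (-0.12, adjusted p = 0.855). For Col4a3-/-OPN-/- against Col4a3-/- hearts, which shares the Col4a3-/- hearts, 2 of 29 were positive (median -0.13), with Psmb4 at -0.35 and Psmb2 at 0.06 (adjusted p = 0.303 and 0.880). For Col4a3-/-OPN-/- against wild type hearts 16 of 29 were positive (median 0.01). The median subunit was 0.22 and 0.29 above the wild type mean in Col4a3-/- replicates 1 and 3 and -0.09 in replicate 2, and replicates 1 and 3 are also those with low atrial markers and the Xist signal. For Col4a3-/- against wild type hearts, the atrial signal as a covariate turned the sign of the median (6 of 29 positive, median -0.14), with a Y-linked covariate 19 of 29 were positive (median 0.06), with array weights 17 of 29 (median 0.04), and without Col4a3-/- replicate 3 20 of 29 (median 0.07). Between Col4a3-/-OPN-/- and Col4a3-/- hearts the atrial covariate also turned it (20 of 29 positive, median 0.09), and 11 of 29 were positive with array weights (median -0.02) and 9 of 29 without Col4a3-/- replicate 3 (median -0.05). Col4a3-/- replicate 3 was the highest heart for 18 of the 29 subunits (62.1%). Atrial markers had a mean log2 signal of 8.69, 9.85 and 8.84 in Col4a3-/- hearts, against 10.1 to 10.3 in wild type hearts. The atrial covariate and genotype therefore cannot be told apart here. The part of atrial tissue or sex in the proteasome differences was not tested.

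Between Col4a3-/-OPN-/- and wild type hearts, where limma gave an adjusted p of 0.999 for each gene named here, the highest and lowest genes of the lists were as follows. In the core machinery, Ambra1, an activator of the Becn1 complex, was at 0.35 and Wipi1 at -0.12, and among receptors Wdfy3 was at 0.20 and the mitophagy kinase gene Pink1 at -0.03. The lysosomal cholesterol transporter gene Npc1 was at 0.25 and the proton pump subunit gene Atp6v0d1 at -0.17. Among ligases Cblb was at 0.44 and Fbxo30 at -0.19. Of the FoxO list, Irs2, of insulin signalling, was at 0.35 (SE 0.47) and Cdkn1a at -0.41 (SE 0.55). Psmc6 was at 0.10 and Psmd8 at -0.14 among proteasome subunits.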

How the data were processed

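RMA, named without a version in the submitters' processing notes, gave the deposited log2 values. It corrects background, normalizes arrays to each other and summarizes each probe set. The labels name a kit for labelling small RNA, while the probe sets are those of a mouse gene array, so how the RNA was labelled is uncertain. The platform annotation gives 23521 of 33793 probe sets 1 gene symbol. Of these, the 13650 with a mean above 5.21, the median of all probe sets, were tested in 1 fit of all 9 arrays (limma 3.58.1, R 4.3.3, lmFit and eBayes with an intensity trend, two-sided, Benjamini-Hochberg adjusted over all 13650). The fit shares 1 spread per probe set among genotypes, while Col4a3-/- hearts varied more (median SD 0.21, against 0.12 and 0.14). An exact permutation test of 3 against 3 hearts cannot go below 0.1. The number of arrays limits the precision. Signals of different probe sets were not compared. Array medians lay between 5.18 and 5.24.

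The members, lists and named genes were chosen with earlier results of these data known. Of each list the genes with the highest and lowest difference were named in each comparison, and for Trim63 the 5 closest profiles. Marker sums are sums of unlogged signals, given as log2. The alternatives were 2 other scalings, 2 filters, 2 ways of moderation, array weights, only the arrays compared, a Y-linked or atrial covariate, a block for replicate numbers, and single hearts left out. The fit was run on simulated data to check that planted differences were estimated. Those data had equal spread in all genotypes, unlike these hearts, so the run does not test the calls made here.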

Additional observations from a re-analysis of the deposited data

How the results depend on the processing

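Limma called 0 of the 10 genes in each comparison and 0 of 141 related genes under every alternative that was run (smallest adjusted p of the 10 genes 0.259, for Map1lc3b in Col4a3-/-OPN-/- against Col4a3-/- hearts without Col4a3-/- replicate 3). The signs were less stable, and 3 hearts a group limit all of them. The same replicate numbers mostly do not pair the hearts (r of deviations from -0.19 to 0.23, above 0.1 in 2 of 9 pairs). Both of these pairs held Col4a3-/-OPN-/- replicate 3, with Col4a3-/- replicate 3 (0.23) and with wild type replicate 3 (0.14). Wild type replicate 3 and Col4a3-/- replicate 3 were at 0.065, and pairs of different numbers reached 0.31. The 3 of 9 hearts that correlated best with their own number were replicate 3 of each genotype. What these 3 hearts share was not tested. With the replicate block, 0 of the 10 genes were called, the smallest adjusted p in the 3 comparisons was 0.582, 0.532 and 0.999, the median SE fell from 0.22 to 0.18, and the calls over all tested probe sets in Col4a3-/-OPN-/- against Col4a3-/- hearts went from 6 to 0.

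With array weights, the sign turned for Fbxo32 (-0.21) and Sqstm1 (-0.037) in Col4a3-/- against wild type hearts, and for Fbxo32 (0.16), Sqstm1 (0.081), Gabarapl1 (0.074) and Fbxo31 (0.0043) in Col4a3-/-OPN-/- against Col4a3-/- hearts. With the atrial covariate, the sign turned for Fbxo32 (-0.40), Map1lc3a (-0.054), Sqstm1 (-0.090), Foxo3 (0.027), Rubcn (0.027) and Tax1bp1 (-0.050) in Col4a3-/- against wild type hearts, and for Fbxo32 (0.25), Sqstm1 (0.094), Gabarapl1 (0.047) and Fbxo31 (0.0019) in Col4a3-/-OPN-/- against Col4a3-/- hearts. After renewed quantile normalization, the sign turned for Becn1 (0.025) in Col4a3-/- against wild type hearts, and for Sqstm1 (0.029) in Col4a3-/-OPN-/- against Col4a3-/- hearts, and for Pink1 (0.012) in Col4a3-/-OPN-/- against wild type hearts. With centred arrays, the sign turned for Sqstm1 (0.0061) and Ulk1 (0.017) in Col4a3-/-OPN-/- against Col4a3-/- hearts. The cause was not tested.

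In Col4a3-/- against wild type hearts, leaving out single hearts turned the sign and gave a range of -0.51 to 0.41 for Fbxo32, -0.25 to 0.77 for Trim63, -0.29 to 0.15 for Map1lc3b, -0.20 to 0.26 for Sqstm1, -0.013 to 0.74 for Bnip3, -0.37 to 0.080 for Ulk1, -0.11 to 0.047 for Becn1, -0.38 to 0.062 for Foxo3, -0.067 to 0.71 for Ctsl and -0.057 to 0.24 for Tax1bp1. In Col4a3-/-OPN-/- against Col4a3-/- hearts, leaving out single hearts turned the sign and gave a range of -0.46 to 0.46 for Fbxo32, -0.82 to 0.19 for Trim63, -0.040 to 0.40 for Map1lc3b, -0.22 to 0.24 for Sqstm1, -0.53 to 0.23 for Bnip3, -0.32 to 0.28 for Gabarapl1, -0.26 to 0.19 for Ulk1, -1.12 to 0.35 for Cdkn1a, -0.74 to 0.047 for Ctsl, -0.39 to 0.21 for Fbxo31, -0.032 to 0.25 for Psmb2 and -0.097 to 0.20 for Tax1bp1. In Col4a3-/-OPN-/- against wild type hearts, leaving out single hearts turned the sign and gave a range of -0.32 to 0.16 for Fbxo32, -0.26 to 0.17 for Trim63, -0.16 to 0.11 for Map1lc3a, -0.14 to 0.16 for Sqstm1, -0.27 to 0.0056 for Ulk1, -0.0055 to 0.20 for Foxo3, -0.045 to 0.67 for Irs2 and -0.092 to 0.055 for Pink1. The sign of these differences therefore rests on single hearts.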
